A study of Sus scrofa with 12 samples.

Results

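The genes described here encode the protein subunits of the mitochondrial ribosome. Members were all genes annotated as protein-coding on the pig genome Sscrofa11.1 whose symbol starts with MRPL or MRPS, and they were chosen by name alone. There were 76 of them among 28541 annotated genes that could be placed, with 48 MRPL and 28 MRPS symbols. A further MRPS symbol, MRPS12, is annotated as a non-coding RNA in the RefSeq annotation used and was not counted. Expression had been sequenced in longissimus dorsi, the long muscle of the loin, of 12 castrated male Iberian pigs. Of these, 6 had a high (H) and 6 a low (L) estimated breeding value for intramuscular fat (IMF). All of them were first fed a restricted diet and then fattened outdoors on acorns and grass, and the labels name no other treatment. The study gives the same approximate slaughter age and weight for all of them. The labelled IMF content was 10.62 to 13.8% in the H pigs and 1.7 to 2.28% in the L pigs. The mean IMF that the study gives lies within the labels for the H pigs but above every label for the L pigs. The reason for that difference is not known. The breeding values were 2.78 to 3.48 and -1.46 to -1.31, so the groups differ in fat content and in genetic merit together. The study drew the pigs from several combined free-range and slaughter batches and sequenced several samples per lane. The labels used here give neither batch nor lane for a pig, so their balance between H and L is not known. The comparison asks whether expression of these genes differs between muscles that hold much and little fat.

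Mitochondria translate the few proteins encoded by their own DNA, all of them subunits of the respiratory chain and of ATP synthase, on a ribosome that differs from the cytosolic one. Its RNA comes from mitochondrial DNA, whereas its proteins come from nuclear genes, are made in the cytosol and are imported. Proteins of the large subunit (MRPL) surround the site of peptide bond formation and the exit tunnel, those of the small subunit (MRPS) hold the mRNA and the decoding site. The symbols do not follow this division exactly: MRPS18A and MRPS30 sit in the large subunit of mammals, and MRPS36 is known as a subunit of the 2-oxoglutarate dehydrogenase complex. In all values below, large and small subunit members mean genes with MRPL and MRPS symbols, so these genes count as small subunit members. MRPL58 also acts as a peptidyl-tRNA hydrolase that releases stalled chains. Skeletal muscle is rich in mitochondria, and its fibres depend on them to differing degrees.

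The members lie on 17 chromosomes and 1 unplaced scaffold, with at most 10 on a chromosome. They were short genes, with a median coding length of 619.5 bases against 1434 in the 12021 protein-coding genes that were tested and had a promoter window, and a median of 5 exons against 10. In 28 of 76 members (36.8%) another protein-coding gene starts on the opposite strand within 1000 bases of the start, as in 17.2% of the protein-coding genes tested. Promoters were taken from 250 bases before to 50 bases after the annotated start and searched on both strands for 3 short motifs known from promoters of housekeeping and mitochondrial genes, CCGGAAG (the ETS type), CATGCGC (part of the NRF1 site) and AAGATGG (part of the YY1 site), the first and the last of which can share the letters AAG. At least 1 of them stood in 36 of the 76 promoters (47.4%), compared with 24.6% of the tested protein-coding genes and 18.8% of all of them. CCGGAAG was found in 27.6% of the members against 15.6% of the tested genes, CATGCGC in 15.8% against 5.75% and AAGATGG in 14.5% against 5.91%. The motif matches describe letters only, and binding was not measured.

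The promoters of 3 loci are shown: that of the gene with the highest mean level, that of the gene with the smallest p-value, and one that 2 members share, MRPS11 (9.88 to 17.7 FPKM in H and 3.45 to 16.5 in L) and MRPL46 (10.2 to 14.5 and 8.90 to 14.0 FPKM). No expression result rests on these letters. Capitals mark the motifs. The MRPL17 window is chr9:3075736-3076035, plus strand, with CATGCGC on both strands and CCGGAAG on the minus strand. The MRPL41 window lies on scaffold AEMK02000682.1 at 440977 to 441276, minus strand, with CCGGAAG at positions 259 and 278 of the window, and the start of PNPLA7 on the other strand is 4 bases away. The MRPL46 window is chr1:191321740-191322039, plus strand. Position 251 is the start of the gene in each window, and in the last the start of MRPS11 on the minus strand is position 212, with 38 bases between the starts. Sequences are from the RefSeq copy of Sscrofa11.1.
MRPL17 promoter: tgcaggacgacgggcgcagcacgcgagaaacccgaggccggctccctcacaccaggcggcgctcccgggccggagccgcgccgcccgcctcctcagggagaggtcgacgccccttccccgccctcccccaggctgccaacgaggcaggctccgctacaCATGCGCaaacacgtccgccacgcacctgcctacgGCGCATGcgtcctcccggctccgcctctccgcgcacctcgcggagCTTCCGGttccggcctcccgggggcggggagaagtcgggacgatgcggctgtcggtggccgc
MRPL41 promoter: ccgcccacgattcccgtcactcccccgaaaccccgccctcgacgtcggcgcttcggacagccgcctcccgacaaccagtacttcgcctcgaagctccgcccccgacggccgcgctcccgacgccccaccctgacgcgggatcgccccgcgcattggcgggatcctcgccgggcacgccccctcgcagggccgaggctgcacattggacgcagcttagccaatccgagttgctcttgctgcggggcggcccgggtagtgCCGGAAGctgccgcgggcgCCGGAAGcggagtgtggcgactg
MRPS11-MRPL46 promoter: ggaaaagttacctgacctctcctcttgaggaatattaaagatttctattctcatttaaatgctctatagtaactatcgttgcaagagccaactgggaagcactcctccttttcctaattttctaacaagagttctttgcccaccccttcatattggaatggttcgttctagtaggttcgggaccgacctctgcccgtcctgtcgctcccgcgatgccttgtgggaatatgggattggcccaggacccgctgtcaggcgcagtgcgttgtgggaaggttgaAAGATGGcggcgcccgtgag

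Expression was deposited as FPKM, fragments per kilobase of transcript, scaled to the number of fragments mapped, for every transcript assembled in each pig. Transcripts were assigned to genes and summed, and libraries were scaled by median ratios. Libraries held 30535 to 44609 transcripts and a summed coverage of 9.88 to 17.62 gigabases, of which 41.83 to 56.52% lay on assigned transcripts. Read counts per gene were not in the files, and the intervals they hold for the FPKM of each transcript were not used, so no counting error is given. The 10 skeletal muscle markers tested summed to 32060 to 51710 FPKM in H pigs and 35280 to 46250 in L pigs, as the tissue label says. The 9 adipocyte markers were all higher in H (median log2 fold change 0.72, 2 at an unadjusted p under 0.05, none after adjustment), with summed levels of 152.1 to 252.3 FPKM in H and 105.7 to 150.6 in L. In bulk muscle, fewer cells of a type and less RNA per cell cannot be told apart.

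All 76 members reached the minimum of 0.5 FPKM in a group and were tested among 12564 genes. MRPS7 and MRPL53 did so through 1 library each, L6 and H5, and both count in the split into higher and lower members below. The median level of the 76 members was 15.1 FPKM, against 4.16 FPKM for the 12023 protein-coding genes tested, and 68 members were above 0 in every library. Levels spread from 0.728 to 72.2 FPKM, with 60 members at 10 FPKM or more and 4 under 5 FPKM. Large subunit members had a median of 17.1 FPKM and small subunit members of 13.3 FPKM. The summed FPKM of the large subunit was 1.82 to 2.51 times that of the small subunit in H pigs and 1.94 to 2.25 times in L pigs, so the ranges overlapped.

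The 6 highest members were all large subunit genes. MRPL17 ranged from 58.1 to 80.1 FPKM in H pigs (median 66.9) and from 56.9 to 95.5 in L pigs (median 78.6). MRPL33 ran from 46.9 to 98.4 FPKM in H (median 73.4) and 52.7 to 90.5 in L (median 72.9), and the groups of both genes overlapped widely. MRPL57 had means of 60.1 ± 8.45 (SD, n = 6) and 60.1 ± 7.87 FPKM in H and L. MRPL52 had means of 49.4 ± 9.27 and 48.8 ± 6.52 FPKM, and MRPL12, whose product forms the stalk that binds translation factors, 49.0 ± 10.5 and 45.9 ± 8.97 FPKM. MRPL17 and MRPL33 had means over the 12 pigs of 72.2 and 71.8 FPKM, a difference smaller than the spread of either. MRPL28 completed the group at 49.0 FPKM with 1 pig listed at 0. The plot of levels shows how far the members lie apart compared with the pigs.

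**Figure D1:**
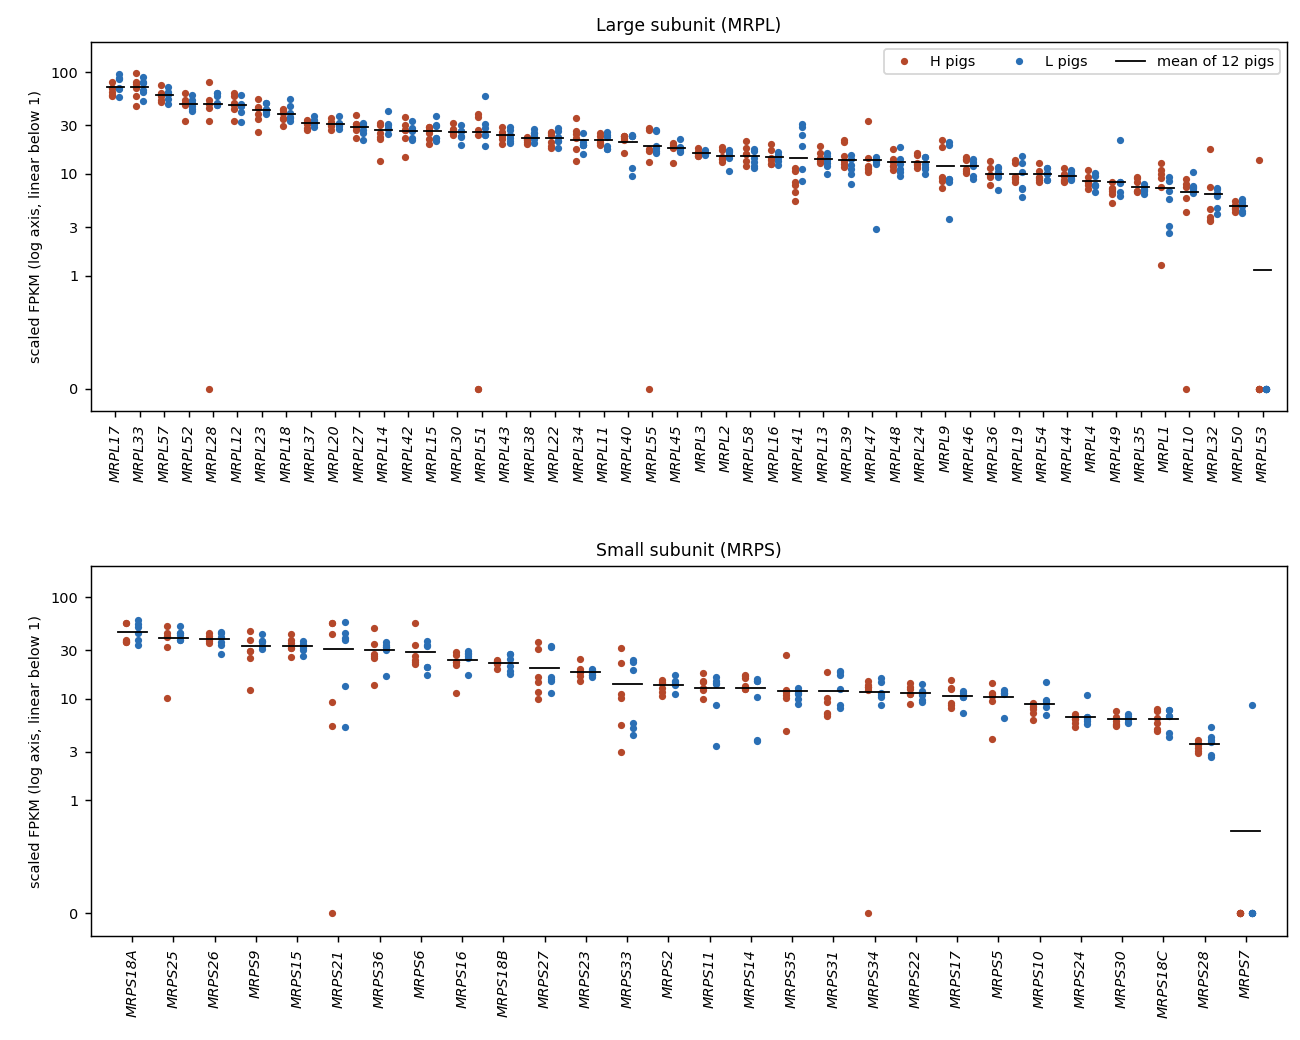
Scaled FPKM of the 48 large subunit (upper panel) and 28 small subunit members (lower panel), ordered by mean; points are the 6 H and 6 L pigs, lines the mean of the 12 pigs, and the axis is logarithmic above 1. MRPL17 and MRPL33 have means of 72.2 and 71.8 FPKM, 60 of 76 members lie at 10 FPKM or more, and 8 members have points at 0.

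At the lower end, MRPS28 ran from 2.92 to 3.94 FPKM in H pigs and 2.69 to 5.28 in L pigs. MRPL50 lay at 4.18 to 5.39 and 4.13 to 5.65 FPKM, MRPS18C at 4.76 to 7.89 and 4.19 to 7.75, and MRPS30 at 5.36 to 7.64 and 5.80 to 7.12. In each of these 4 genes the H and L pigs overlapped almost completely. The lowest values belonged to MRPS7 and MRPL53, which were above 0 in 1 library each. Over the annotated exons of MRPS7 the other 11 libraries held transcripts of the opposite strand only, covering 47.6 to 93.1% of its exonic bases, and in L6 the gene was listed at 8.74 FPKM. Over the exons of MRPL53 the 11 libraries at 0 held same-strand transcripts that were counted for the overlapping CCDC142, and H5 was listed at 13.6 FPKM. These 2 genes are listed at 0, which does not show that they were silent.

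No member passed an adjusted p under 0.1 (limma on log2(FPKM + 0.5), Benjamini-Hochberg over all genes tested), and of the 12564 genes 1 did (0.00796%). At an unadjusted p under 0.05 there was 1 member of 76 (1.32%), lower in H, whereas 920 genes (7.32%) passed, 496 of them higher (3.95%) and 424 lower in H (3.37%). The median log2 fold change of the members was -0.007, with 33 higher and 43 lower in H, and that of all genes tested was 0.003 with 50.5% higher. Large subunit members had a median of -0.001 (23 of 48 higher) and small subunit members of -0.10 (10 of 28 higher). Quantile normalization turned the split of the members to 45 higher of 76, with a median of 0.045. Other settings moved it the other way. With a fitted weight for each pig 26 of 76 were higher (median -0.056). With the annotated length of the gene in every pig, a scale described below, 27 of the 75 members tested were higher (median -0.041). The H and L pigs overlapped in every member, and in 70 genes of all those tested (0.557%) they did not.

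The confidence intervals bound what these 12 pigs could show. In 59 of 76 members (77.6%) the 95% interval of the log2 fold change lay within 1 on both sides of 0, and in 41 (53.9%) within 0.5, compared with 76.7% and 27.3% of all genes tested. The median level was 15.1 FPKM in the members and 3.95 FPKM in all genes tested, and no set of genes of like level was compared. MRPL3, whose product reaches towards the site of peptide bond formation, was the steadiest member with transcript lengths as assembled. It had 14.8 to 17.9 FPKM in H, 15.4 to 17.0 FPKM in L and a log2 fold change of -0.01 (SE 0.09). With the annotated length of the gene in every pig, a scale described below, it was not the steadiest. Its SD within groups of log2 FPKM was then 0.136 in place of 0.080, and that of MRPS30 was 0.095. MRPL37 differed by -0.09 (SE 0.10), MRPL50 by -0.04 (SE 0.10) and MRPL20 by -0.01 (SE 0.11). With lengths as assembled, MRPL38 had the smallest spread after MRPL3 and MRPL37. It ranged from 19.8 to 23.0 FPKM in H and from 20.2 to 27.8 in L, a log2 fold change of -0.16 (SE 0.10, adjusted p = 0.76, limma). An absolute log2 fold change of 1 or more was seen in 4 members, MRPL51, MRPL28, MRPL41 and MRPS21, and in 2.52% of all genes. MRPL51, MRPL28 and MRPS21 each had a pig listed at 0.

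**Figure D2:**
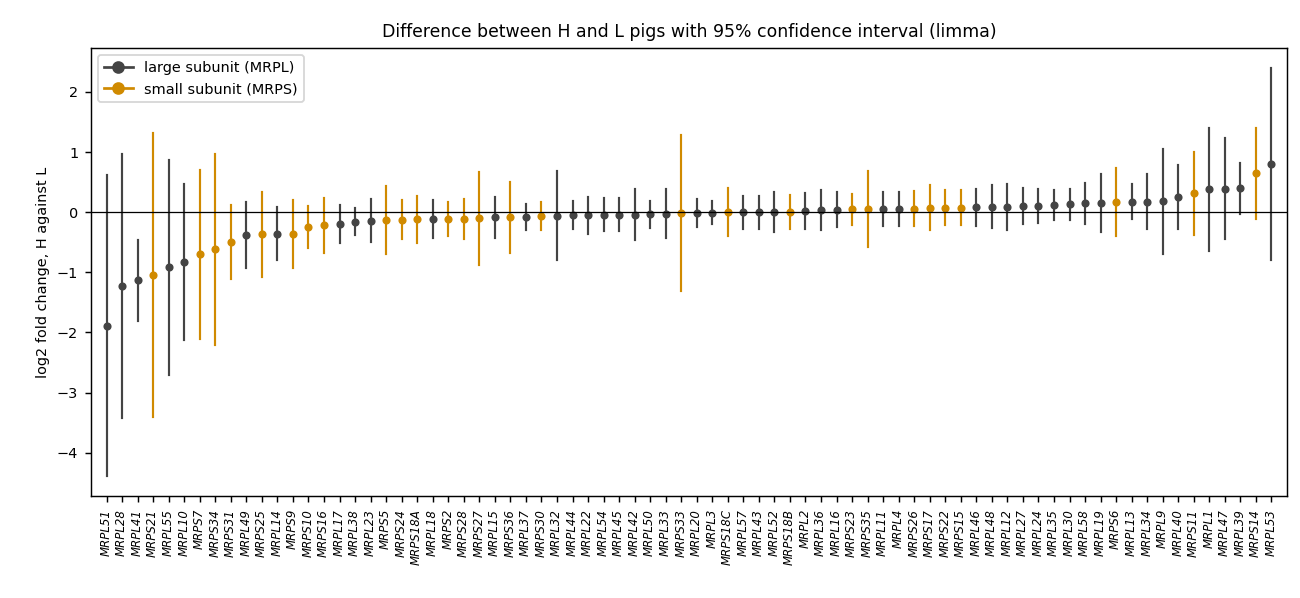
Log2 fold change of H against L pigs for the 76 members in order of size, with the 95% confidence interval from limma; grey points are MRPL and orange points MRPS genes. The interval of MRPL41 (-1.82 to -0.46) is the only one that leaves out 0, and the widest intervals belong to members listed at 0 in some pigs.

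MRPL41, a large subunit protein gene with a single exon on scaffold AEMK02000682.1 (440352 to 441026, minus strand, 675 bases), had the smallest p-value. Its level was 5.42 to 11.4 FPKM in H pigs (median 8.08) and 8.52 to 31.0 FPKM in L pigs (median 21.5). Its log2 fold change was -1.14 (SE 0.31, unadjusted p = 0.0033, adjusted p = 0.57 by limma, exact permutation p = 0.011, two-sided), so it did not pass the adjustment. The high values were in 4 L pigs, and the other 2 lay among the H pigs at 8.52 and 11.2 FPKM.

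The assembled MRPL41 transcript differed in length in the same pigs. In L2, L3, L5 and L6 it was 604, 672, 599 and 636 bases long, with 31.0, 18.7, 24.2 and 29.1 FPKM. In the other 8 pigs it was 1357 to 2047 bases long, with 5.42 to 11.4 FPKM, and ran past the annotated end of the gene. FPKM divides fragments by the length of the transcript, so the values were also computed with the annotated length of 675 bases in every pig (FPKM times assembled length, divided by the annotated length and scaled again). On that scale MRPL41 was at 15.9 to 30.2 FPKM in H pigs and at 19.4 to 28.1 FPKM in L pigs, with a log2 fold change of -0.17 (adjusted p = 0.72, limma; exact permutation p = 0.30). The deposited coverage, an average along each assembled transcript, gave a log2 fold change of -1.06 over the annotated exons. The fixed-length value counts all fragments of the assembled transcript for the gene, those beyond its annotated start and end included. The coverage spreads them evenly along the transcript. A lower level of the gene and a longer transcript therefore cannot be told apart from these files.

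**Figure D3:**
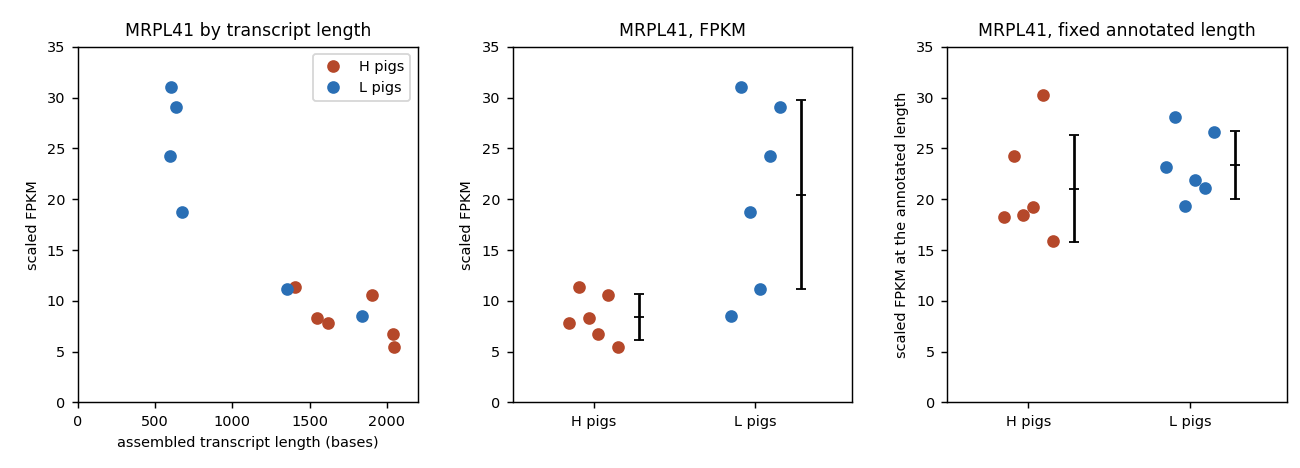
MRPL41 in the 12 pigs: FPKM against the length of the assembled transcript (left), FPKM by group (middle) and FPKM at the fixed annotated length of 675 bases by group (right); black marks are the mean with its SD (n = 6). The 4 pigs with transcripts of 599 to 672 bases hold the 4 highest FPKM values, and at the fixed length the groups overlap from 19.4 to 28.1.

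The 3′ ends of MRPL41 and MRPS14 are shown because the transcripts of different pigs stop at different places there. Capitals mark the polyadenylation hexamer (AATAAA or ATTAAA), both on the minus strand. The 4 short MRPL41 transcripts stopped 52 to 57 bases before an ATTAAA near the annotated end, and the other 8 ran past it. MRPS14, a small subunit protein gene, was assembled with the same 3 exons in all pigs. In 10 pigs it stopped before a first AATAAA, and in L4 and L6 the last exon continued towards a second AATAAA near the annotated end, 62 and 63 bases beyond the assembled end. The windows are AEMK02000682.1:440358-440387 for MRPL41, and chr9:117100069-117100098 and chr9:117097842-117097871 for MRPS14, from the same RefSeq genome.
MRPL41 end: gcctgtccctctATTAAAgactttagctgt
MRPS14 near end: tctcttggacttAATAAAcatcctgttacc
MRPS14 far end: tcttaaattctaAATAAAtggagtgatttt

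MRPS14 was at 12.5 to 17.3 FPKM in H pigs, and in L pigs at 3.86 and 3.95 FPKM in L6 and L4 and at 10.5 to 15.6 FPKM in the others. The 2 low pigs are those with the long last exon, 2781 and 2790 bases against 444 to 606. The log2 fold change of 0.65 (SE 0.35, adjusted p = 0.73) became -0.05 at the fixed annotated length, where L6 and L4 had the 2 highest values (3.56 and 3.66 FPKM). MRPL39 showed 11.7 to 21.7 FPKM in H and 7.97 to 15.2 FPKM in L, a log2 fold change of 0.40 (SE 0.19, adjusted p = 0.69). It was -1.10 when only annotated intron chains were counted, since 2 H pigs held other chains, and 0.11 at the fixed length. MRPS31 had 6.79 to 18.4 FPKM in H and 8.06 to 18.8 in L, with a log2 fold change of -0.49 (SE 0.28) that was 0.04 at the fixed length. The highest values of both genes were sums over separately assembled pieces of the gene. For MRPL39 in H3 the pieces had 10.8 and 10.9 FPKM. For MRPS31 the transcripts summed had 10.2 and 8.205 FPKM in H2, and 4.50, 4.95 and 9.38 FPKM in L3.

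The other members among the 12 smallest p-values were lower in H, with none past the adjustment (0.73 to 0.78, limma). MRPL14, whose product lies at the interface of the subunits, had 13.3 to 31.3 FPKM in H and 24.4 to 41.6 FPKM in L, and its log2 fold change of -0.36 (SE 0.20) was -0.35 at the fixed length. MRPS10 had -0.25 (SE 0.16) and -0.26 on the 2 scales and MRPL17 -0.20 (SE 0.14) and -0.27. MRPL38 had -0.16 and -0.26, and at the fixed length it was the single member with an unadjusted p under 0.05 (adjusted p = 0.41, limma). MRPL49 had -0.38 (SE 0.25) and -0.07, with 21.6 FPKM in L5 and 5.13 to 8.38 FPKM in the other pigs. MRPS9 had -0.36 (SE 0.26) and -0.08. MRPL51 and MRPL10, at -1.89 (SE 1.15) and -0.83 (SE 0.60), include pigs listed at 0. Leaving out 1 pig moved several of these values towards 0 by more than 1.5 times: MRPL14 was -0.20 and MRPS9 -0.12 without H5, MRPS10 was -0.13 without L3, MRPL49 -0.13 without L5, MRPL51 -1.09 without H4 and MRPL10 -0.19 without H6.

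There were 8 members listed at 0 in at least 1 library, among them MRPS7 and MRPL53 above. MRPL51 was at 0 in H4 and H6, where no transcript was assembled over its exons, and at 18.9 to 58.4 FPKM elsewhere. MRPL28 was at 0 in H3, MRPL10 in H6, and MRPL55 and MRPS21 in H4. In these 4 cases same-strand transcripts covered 74.3, 92.6, 76.5 and 76.7% of the annotated exons but shared more bases with a neighbour (TMEM8A, OSBPL7, C2H1orf35 and CIART), for which they were counted. MRPS34 was at 0 in H3, where the opposite strand alone was covered (30.8% of its exons), and at 8.73 to 15.98 FPKM in the other pigs. All 7 of these zeros were in H pigs. Over the exons of MRPL28, MRPL10, MRPL55 and MRPS21 the coverage in the pigs at 0 was above 0, so a fold change against these zeros is not a bound. MRPL51, MRPS21, MRPL28 and MRPL55 had the widest confidence intervals of all members.

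MRPS21 also shows how pigs differ in the splice site used. The 3 donors of its first intron are printed for chains that share the same second intron, at chr4:98794666-98794685, chr4:98794768-98794787 and chr4:98794612-98794631, minus strand, and capitals mark the first bases of the intron. Chain 1 was assembled in 11 libraries and carried 64.5% of the spliced FPKM of the gene, chain 2 in 3 libraries with 18.4%, and chain 4, whose intron starts with GC, in 4 libraries with 6.37%. All 3 chains are annotated.
MRPS21 donor 1: accgtgagcgGTaattaggg
MRPS21 donor 2: tttgggggaaGTgaggagat
MRPS21 donor 4: ccttgtctagGCaagtaaat

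Across the 75 members with a spliced transcript, 213 intron chains were assembled, of which 88 are annotated, 43 were found in all 12 libraries and 81 in a single library. Annotated chains were found in all 12 libraries for 40 members, 25 members were assembled wholly in annotated chains, and 8 had no annotated chain. The median member had 92.8% of its FPKM in annotated chains. A second chain with at least 20% of the spliced FPKM was found in 11 members: MRPL2, MRPL9, MRPL15, MRPL32, MRPL35, MRPL53, MRPL58, MRPS2, MRPS9, MRPS27 and MRPS31. The share of the leading chain was compared between H and L in 10 of them, and none passed the threshold of 0.1 (exact permutation test, two-sided, adjusted p of 0.55 or above over the 10 comparisons). MRPL32 had the largest difference, with 46.9 ± 43.8% of its spliced FPKM in a 3-exon chain in H pigs and 89.0 ± 13.3% in L pigs (SD, n = 6, exact permutation p = 0.065). MRPS2 had 57.3 ± 29.0% and 73.9 ± 4.05% (exact permutation p = 0.11), and without H5 the H pigs had 68.8 ± 8.24%, a difference of -5.15 in place of -16.6 percentage points.

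In several members the pigs fell into a low and a high set that followed the transcripts assembled and not the group. MRPS27, a pentatricopeptide repeat protein gene of the small subunit, was at 30.8 to 35.7 FPKM in H1, H5, L3 and L5 and at 9.96 to 16.4 FPKM in the other 8 pigs. In those 4 pigs it was assembled in pieces, 1 of them a 2-exon fragment of 145 to 147 bases with 16.02 to 21.86 FPKM, and in the other 8 as an 11-exon chain with a median length of 2171 bases. MRPL9 was at 18.6 to 21.7 FPKM in H2, H4, L3 and L5, where the annotated 7-exon chain was assembled, and at 3.62 to 9.40 FPKM in the rest, which held chains of 9 or 10 exons that ended beyond the annotated gene. MRPS33 ran from 3.01 FPKM in H1 to 31.5 FPKM in H2, and its 5 highest pigs (H2, H5, L1, L5 and L6) were those with a transcript of 428 to 637 bases. At the fixed annotated length the ratio of the highest to the lowest pig fell to 1.76 from 3.58 in MRPS27, to 2.50 from 6.00 in MRPL9 and to 2.14 from 10.5 in MRPS33. For MRPL47 it was 1.82 in place of 11.4.

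For the 68 members above 0 in every library, the median SD within groups of log2 FPKM was 0.273 with assembled lengths and 0.229 with the fixed length, against 0.413 and 0.309 for the 10574 genes above 0 in every library. Those genes were not matched to the members in level or length. With assembled lengths 14 of the 68 members had an SD above 0.5, led by MRPS33 (1.21) and MRPL1 (1.02), and with the fixed length none did. Among all genes the number above 0.5 went from 3725 to 2285. The SD was smaller with the fixed length in 45 of 68 members (66.2%) and in 65.9% of all genes.

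**Figure D4:**
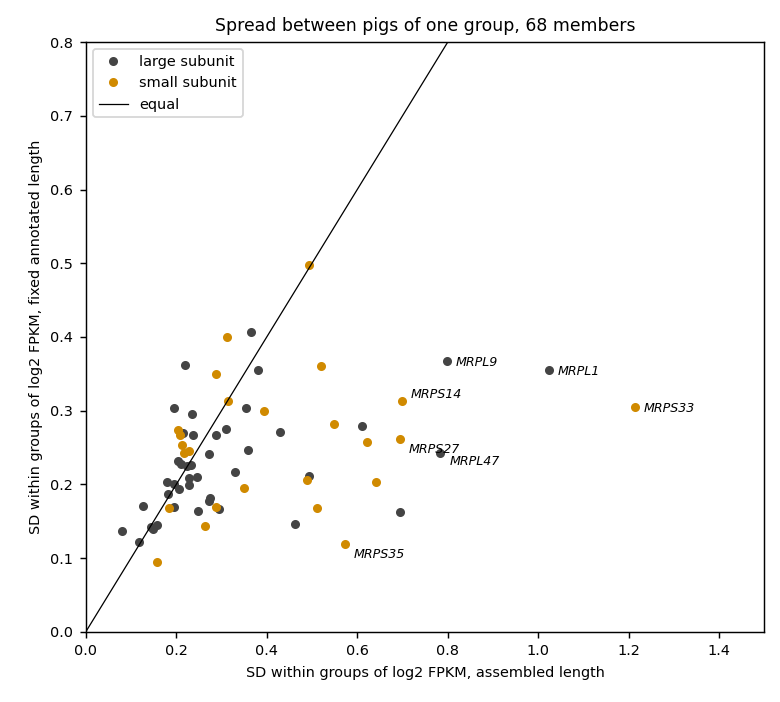
SD within groups of log2 FPKM over the 6 pigs of a group, with the assembled length of each transcript (horizontal) and with the annotated length of the gene (vertical), for the 68 members above 0 in every library; the line marks equal values. The 14 members beyond 0.5 on the horizontal axis all lie below 0.5 on the vertical axis.

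Members tended to deviate in the same direction within a pig. In H2, 57 of the 68 members above 0 in every library lay above their own mean over the 12 pigs, in L6 54, and in H3 12. The median deviation from that mean on the log2 scale ran from -0.19 in H3 to 0.20 in H2 among H pigs and from -0.12 in L3 to 0.17 in L6 among L pigs, so the groups overlapped (means -0.002 ± 0.14 and 0.011 ± 0.10, SD, n = 6). The same medians over all 10574 genes stayed between -0.020 and -0.017, close to 0 by the scaling. The mean correlation between pairs of members, from deviations within groups over the 12 pigs, was 0.17, and it was 0.30 at the fixed length. Over all genes it was 0.0001 and 0.001, but the scaling holds those values close to 0 as well. They are therefore no yardstick for the members, and no set of genes of like length and level was compared. All members of a pig share its library and depth, and the correlation is a description.

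**Figure D5:**
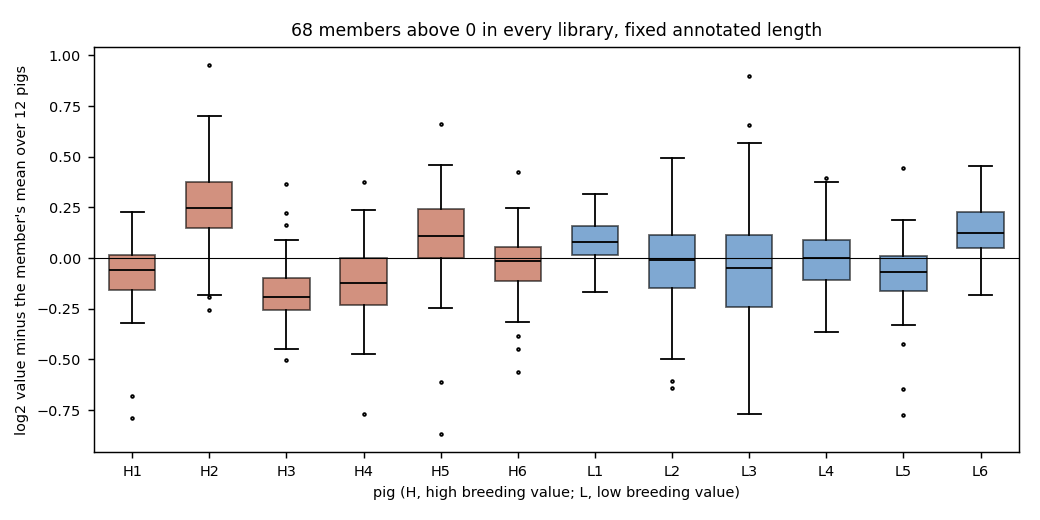
Deviation of each of the 68 members from its own mean over the 12 pigs, log2 scale, fixed annotated length; boxes span the quartiles with the median as a line, and whiskers and points show the members beyond them. Medians run from -0.19 in H3 to 0.25 in H2, and both groups lie on both sides of 0.

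Other genes of mitochondrial translation gave no call either. Of the 5 ribosomal proteins with other symbols (DAP3, PTCD3, CHCHD1, AURKAIP1 and GADD45GIP1) none passed the adjustment, with a median log2 fold change of -0.02. GADD45GIP1 was above 0 in 6 of 12 libraries, at up to 19.5 FPKM in H and 20.4 in L, with a fitted log2 fold change of -1.80 (SE 1.39) that rests on these zeros, and PTCD3 -0.07 (SE 0.26). Among 23 assembly and rRNA modification factors 13 were higher and 10 lower (median 0.09), and 1 reached an unadjusted p under 0.05, MTG2, a GTPase of the large subunit, at 0.51 (SE 0.21, adjusted p = 0.66, limma), followed by NGRN at -0.57 (SE 0.31). Of 14 translation factors 7 were higher and 7 lower (median -0.005), with the release factors MTRF1L at 0.22 (SE 0.09, adjusted p = 0.66, limma) and MTRF1 at 0.38 (SE 0.27). Of 19 mitochondrial aminoacyl-tRNA synthetases 9 were higher and 10 lower (median -0.002), and YARS2 and RARS2, which charge tyrosine and arginine tRNA, were at -1.13 (SE 0.58) and -0.60 (SE 0.32). YARS2 was above 0 in 10 of 12 libraries, with its zeros in H pigs, and its value rests in part on them. The 5 genes of mitochondrial transcription tested had a median of 0.03, with MTERF1 at 0.15 (SE 0.12) and TEFM at -0.11 (SE 0.29). The mRNAs of mitochondrial DNA were not analysed here.

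Markers of other cell types and immediate early genes were taken from the same fit, and none of them passed the adjustment. All 7 endothelial markers were higher in H (median 0.31, TEK 0.31 and KDR 0.38), as were the 4 erythroid markers tested (median 0.77, HBB 0.96 and AHSP 1.28) and the 5 macrophage markers tested (median 0.27, MRC1 0.46 and CD163 0.62). AHSP was above 0 in only 6 libraries, at up to 1.74 FPKM in H and 1.22 in L. Of the adipocyte markers CIDEC had 1.23 (SE 0.37) and LPL 0.72 (SE 0.23). Of the 10 muscle markers tested 6 were higher and 4 lower (median 0.07), and the 2 with the smallest p were DES, the intermediate filament of muscle, at -0.46 (SE 0.21) and TNNI2 at -0.32 (SE 0.34), which was -0.02 without H5. All 14 immediate early genes, which respond to stress within minutes, were lower in H (median -0.93, 6 at an unadjusted p under 0.05), FOS at -2.30 (SE 0.59) and DUSP1 at -1.80 (SE 0.47), with a summed level of 116.4 to 422.3 FPKM in H and 268.6 to 846.5 in L. The part of cell make-up or tissue handling in the members' values was not tested.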

How the data were processed

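Muscle RNA of 12 pigs was sequenced as paired reads, and the authors aligned it with TopHat2 2.1.0 and assembled each library with Cufflinks 2.2.1 on Sscrofa11.1, as the submitters' processing notes and the study's methods say. The deposited files are 1 table of assembled transcripts per pig, whose attribute column (unit "other") holds the FPKM value and the coverage of each transcript as the authors' assembler wrote them. No strand-specific protocol is named. The build was checked on the files: 98.3% of 171131 introns start and end with standard splice letters in the RefSeq genome, and 15 unplaced scaffolds were matched by their splice sites.

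Each transcript was assigned to the RefSeq gene on its strand with which it shared most exonic bases (transcripts without a strand if at least 50% of their bases were shared). FPKM was summed per gene, and libraries were scaled by median ratios. A gene was tested where a group mean reached 0.5 FPKM, with limma 3.58.1 (R 4.3.3, variance trend) on log2(FPKM + 0.5), adjusted by Benjamini-Hochberg over all genes tested, threshold 0.1. Fold changes are on that scale, which understates the change of low genes. Single values were also tested by exact permutation over 924 arrangements (smallest p 0.0022). The fit was tested on simulated data with known changes. Depth was taken here only from the coverage in the files, although the study lists the reads and the percentage mapped per pig. Read counts per gene were not available, which limits what can be said of the precision of low genes.

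The genes named are the members past the threshold, the 12 with the smallest p, the 6 highest and 6 lowest, the 5 most and 5 least variable, those listed at 0, those with a second chain of at least 20%, any whose groups do not overlap, and the 2 with the smallest p of each other list; MRPL1, MRPL46, MRPL47, MRPS11 and MRPS33 were chosen after their values were seen. The members and lists were chosen with earlier results of these data known. Alternatives covered the pseudocount, the filter, the scaling, the transcripts used, the variance model, a block for the replicate number, and leaving out each pig. The fixed annotated length was added after seeing the data. Sequences came from the RefSeq copy of Sscrofa11.1.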

Additional observations from a re-analysis of the deposited data

Results flagged for a closer look

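In 9 cases 1 pig lay far from the other 5 of its group, by the ratio of its gap to the range of the group (Dixon's ratio, above its 95% critical value), among 74 groups examined for 37 named members. Chance flags about 1 in 20 groups that were not picked for their values. Some of the members were named for their spread or their zeros, so that rate is no yardstick for the 9 cases. MRPS31 was at 18.4 FPKM in H2 and at most 10.1 in the other H pigs. MRPL51 was at 58.4 FPKM in L1 against 18.9 to 31.0, and MRPS10 at 14.6 FPKM in L3 against 6.94 to 9.74. MRPL49 was at 21.6 FPKM in L5 against 6.12 to 8.38, and MRPL10 at 10.5 FPKM in L6 against 6.54 to 7.58. The MRPL49 value in L5 summed a 4-exon transcript at 6.19 FPKM and a separate fragment of 475 bases at 15.4 FPKM. The MRPS31 value in H2 summed the pieces given above. MRPL32 was at 17.4 FPKM in H5 against 3.44 to 7.52. MRPS7 in L6 (8.74 FPKM) and MRPL53 in H5 (13.6 FPKM) were the single libraries of their genes above 0. MRPS34 was at 0 FPKM in H3 and at 12.2 to 15.1 in the other H pigs. The causes were not tested.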

How the results depend on the processing

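No member was called in the comparison of H and L under any of the 28 alternatives, leave-one-out settings included, where the lowest adjusted p of a member was 0.37. The median log2 fold change of the members was -0.0559 to 0.0449 over the alternatives that keep all pigs or leave out H4 and L3, and -0.0532 to 0.0452 with each pig left out in turn, against a spread of 0.121 between the pig medians within groups. The study's limits on p and fold change, without its q-value, called 0 members with all pigs, and 1 member, MRPL41, without H2, without H5, without L1 or without L4. No leading-chain share was called under any alternative. With the replicate number as a block, 0 members were called and the median was -0.00748. Pigs of H and L with the same number did not deviate together (correlations of -0.0767 to 0.0611), which alone cannot exclude a pairing. Within each group the numbers run in order of falling breeding value, and no label names a pairing. The 12 members with the smallest p kept their sign in 328 of 333 alternatives. Those that turned, and the turned values of the other lists, were as follows; none was called before or after, and the causes were not tested. With annotated intron chains only, MRPL39 gave -1.1, MRPL38 0.156, PTCD3 0.743, MTRF1L -0.236, MTRF1 -1.01, MTERF1 -0.0992, TNNI2 0.52, MRC1 -0.104, CD163 -0.683 and DUSP1 1.93. With coverage over annotated exons MRPS14 gave -0.061, MTRF1 -0.0153 and TEFM 0.0462. At the fixed annotated length, an alternative chosen after seeing the data, MRPS14 gave -0.0545, MRPS31 0.0363, NGRN 0.207, MTRF1 -0.0675 and TEFM 0.179. With each pig left out in turn, PTCD3 ran from -0.205 to 0.054 and TEFM from -0.279 to 0.0774, and values moved by over 1.5 times for MRPS14 (0.415 without L6), MTG2 (0.304 without L5), MTRF1 (0.246 without H5), MTERF1 (0.0964 without H5), YARS2 (-0.745 without H1) and CD163 (0.391 without L2), besides those given above for H5, L3, L5, H4 and H6. The difference in leading-chain share, in percentage points, ran from -6.51 to 14.2 in MRPL2, -21.8 to 1.09 in MRPL35, -13.2 to 6.8 in MRPL58 and -9.63 to 2.85 in MRPS9. There were 6 pigs a group and no read counts per gene. The confidence intervals shown give the range of changes that these values allow for each member, and they are not limits of detection.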
